A study of Mus musculus with 4 samples.

Results

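The genes described here carry out homologous recombination and the Fanconi anaemia pathway of DNA repair, and they were chosen by name from 39 gene names known for these roles. Probes for 38 of them were found among the 28145 gene names on the array. Slx4, a scaffold for nucleases, was not found under that name, and its older name Btbd12 was read with the wider repair genes below. The filter on dim probes asked that both arrays of either line be well above background, and it removed none of the 38 genes. On all 4 arrays 37 of them were well above background, and Fancf, a subunit of the Fanconi core complex, was so on 3.

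RNA came from EPH-4, a non-malignant mouse mammary epithelial cell line, in which the unliganded glucocorticoid receptor (GR) had been depleted to ask which genes depend on it. The line EV-50 was stably transfected with the empty H1-2 vector, and the line shGR-19 carried a short hairpin RNA vector directed against GR, whose gene is Nr3c1. Both were kept in 2 µg/mL puromycin without added glucocorticoid, and for each array 300 ng RNA was labelled with Cy3 and hybridized to an Agilent Whole Mouse Genome array. There were 2 arrays per line, labelled replicates 1 and 2, on 1 slide. As each line grew from 1 clone, a difference between the lines cannot be told apart from a difference between clones. Nothing in the labels says that the replicates were separate cultures, and p-values therefore measure the spread between these arrays, which may be technical.

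Homologous recombination repairs broken DNA by copying from a sister chromatid. The Mre11a, Rad50 and Nbn proteins find the broken end, Rbbp8 and Exo1 help to trim it to a single strand, and Brca1 with Bard1 and Palb2 brings in Brca2, which readies that strand for pairing with the intact copy. The Fanconi pathway acts where the strands are crosslinked: its core complex attaches ubiquitin to Fancd2 and Fanci, and recombination then completes the repair. Many of these genes are transcribed mainly while cells replicate their DNA, and inherited loss of BRCA1, BRCA2 or PALB2 predisposes to breast cancer.

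The bases before the start of 4 of these genes are printed because the genes are Brca1 and Brca2, and Rad51ap1 and Recql, both among the 3 members with the largest differences in the table of processed values. Fancd2, the other of the 3, had no entry. Each run is the 250 bases before the start site in RefSeq on GRCm38.p6, 5' to 3' on the strand of the gene, and capitals mark motif matches. Brca1 is read from chr11:101551956-101552205 on the minus strand, Brca2 from chr5:150522371-150522620 on the plus strand, Rad51ap1 from chr6:126939588-126939837 on the minus strand, and Recql, at the first of 2 listed starts, from chr6:142387088-142387337 on the minus strand.
Brca1: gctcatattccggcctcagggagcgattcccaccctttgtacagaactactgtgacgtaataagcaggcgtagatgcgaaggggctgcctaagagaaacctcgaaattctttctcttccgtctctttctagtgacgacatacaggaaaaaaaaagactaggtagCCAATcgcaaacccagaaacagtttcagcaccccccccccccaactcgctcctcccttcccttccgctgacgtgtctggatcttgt
Brca2: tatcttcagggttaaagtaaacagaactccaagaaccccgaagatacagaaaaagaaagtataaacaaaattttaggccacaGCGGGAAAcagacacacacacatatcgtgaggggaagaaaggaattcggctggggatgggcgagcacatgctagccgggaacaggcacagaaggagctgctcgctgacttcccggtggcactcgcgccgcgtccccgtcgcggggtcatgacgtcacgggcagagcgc
Rad51ap1: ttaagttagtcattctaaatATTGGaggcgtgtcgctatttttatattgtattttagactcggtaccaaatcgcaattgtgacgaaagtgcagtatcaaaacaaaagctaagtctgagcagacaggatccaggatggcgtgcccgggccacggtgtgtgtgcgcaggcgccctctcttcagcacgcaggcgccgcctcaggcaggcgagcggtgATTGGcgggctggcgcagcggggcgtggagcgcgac
Recql: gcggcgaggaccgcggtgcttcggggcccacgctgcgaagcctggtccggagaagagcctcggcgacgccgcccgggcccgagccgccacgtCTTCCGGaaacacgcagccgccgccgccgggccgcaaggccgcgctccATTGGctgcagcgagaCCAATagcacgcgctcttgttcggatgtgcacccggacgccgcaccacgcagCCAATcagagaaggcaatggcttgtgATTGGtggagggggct

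In these windows Brca2 held 1 match to the E2F motif, 168 to 161 bases before the start, and Brca1 held 1 CCAAT box, 86 to 82 bases before it. Rad51ap1 held 2 CCAAT boxes, both on the opposite strand, where they read ATTGG. Recql held 4 CCAAT boxes and 1 match to the ETS motif CCGGAAG, 158 to 152 bases before the start. Both strands were searched, for the E2F motif as TTTCCCGC, TTTGGCGC or TTTCGCGC. Of the 38 genes, 29 had an entry in the promoter table. The E2F motif was in 4 of the 29 (13.8%), namely Bard1, Brca2, Chek2 and Fancg, and in 1.59% of all 27025 promoters and 2.68% of the 9928 promoters of genes kept on the array. A CCAAT box was in 18 of the 29 (62.1%), against 34.5% of all promoters and 36.2% of those of kept genes. The ETS motif was in 4 (13.8%), namely Brip1, Fance, Palb2 and Recql, against 7.05% of all promoters and 12.4% of those of kept genes. TTTGAA, the motif of cell cycle promoters known as CHR, was in 1 (3.45%), Bard1, against 16.3% of all promoters and 11.2% of those of kept genes. AGAACA, the core of the GR binding site, was in 2 (6.90%), Brcc3 and Fancl, against 16.2% of all promoters and 11.4% of those of kept genes. The full palindromic GR site was in none of the 29 and in 1 promoter in all. These are counts of letters in a short window and say nothing of binding.

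The deposited data hold the same 4 samples in 2 forms, the scanner output of each array and a table of processed values, and for these genes they differ. In the scanner output the arrays labelled replicate 1 of the lines were nearly alike, with an SD of the difference of 0.0848 on the log2 scale over the 12220 brighter probes, against 0.478 between the arrays labelled replicate 2. In the value table these SDs were 0.478 and 0.480. Between the 2 arrays of a line the SD in the scanner output was 0.566 for EV-50 and 0.688 for shGR-19. In the value table it was 0.0997 and 0.0896. Scanner arrays of 1 line thus differed more than scanner arrays of the same replicate label. The targeted gene Nr3c1 was read as log2 signal over the 75th percentile of each scanner array, and values are given for the labels replicate 1 and replicate 2 in that order throughout. They were 1.74 and 1.85 for EV-50 and 1.39 and -0.11 for shGR-19. In the value table it read 0.98 and 0.95 in EV-50 and -0.95 and -0.98 in shGR-19, a 3.83-fold lower level in shGR-19 (log2 difference -1.94, SE 0.048, adjusted p = 0.00213 by limma). The array labelled shGR-19 replicate 1 thus did not carry the loss of Nr3c1 that the table column of the same label carried. Both sources are given side by side below, and scanner arrays are named by their label. Which array the scanner output labelled replicate 1 belongs to was not tested.

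Markers of mammary epithelium were detected on all 4 arrays: Krt8, Krt18, Krt7, Krt14, Krt5, Epcam, Cdh1, Cldn3 and Cldn7, 9 of the 10 genes listed, were well above background on each, and Krt19 was so on 2. Of the 9, Krt14 was called lower in the value table, by a log2 difference of -1.13. Of 7 fibroblast markers 5 were kept, namely Col1a1, Col1a2, Pdgfrb, Pdgfra and Vim. All 5 were called higher in shGR-19 in the value table, where 6.12% of all kept genes were. Their log2 differences ran from 1.16 for Pdgfra to 5.57 for Col1a1. The summed signal of all 7 markers, as a multiple of the 75th percentile, was 1.98 and 6.26 in EV-50 and 1.89 and 47.4 in shGR-19. Col3a1 and Thy1, the other two, were each above background on 1 array. Of 6 immune markers 3 were kept and none was called, Ptprc, Emr1 and Itgam were above background on 0 arrays, and the sums were 0.371 to 0.534. Of 4 endothelial markers 2 were kept and none was called, Pecam1 and Cdh5 were above background on 0 arrays, and the sums were 0.0696 to 0.0889. In the value table the 5 kept fibroblast markers were therefore higher in shGR-19, while most of the repair genes below were lower. In the scanner output the sum of the 7 fibroblast markers was higher in shGR-19 only between the arrays labelled replicate 2. Col1a1 and Pdgfra were well above background on 3 of the 4 arrays, and so passed the filter on dim probes through 1 line only. That these genes were kept may thus rest on the line where they were higher. The part of these markers in the values below was not tested. Fewer cells of a type and less RNA per cell cannot be told apart in such bulk RNA.

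In the value table the recombination and Fanconi genes lay mostly lower in shGR-19. Of the 38 genes, 32 had a negative difference and 6 a positive one, and their median was -0.46 on the log2 scale, against 0.02 over all 16769 kept genes. With a call at a limma adjusted p below 0.01, 10 of the 38 (26.3%) fell: Brca1, Brca2, Brip1, Fancd2, Rad51ap1, Rad54l, Recql, Recql4, Atm and Rbbp8. The share of all kept genes called lower was 6.51%. None of the 38 was called higher, where the share of all kept genes was 6.12%, and at an unadjusted p below 0.05 by the same test 30 were lower and 3 higher, a limit that 23.0% of kept genes passed as lower and 25.7% as higher. At an adjusted p below 0.05, 27 of the 38 (71.1%) were lower and 1, Brcc3, was higher, against 17.8% and 19.4% of all kept genes. Fancd2 and Recql were also more than 2-fold lower, a size that 2.70% of kept genes reached with a call. The columns of the lines did not overlap for 31 genes that were lower in shGR-19 and 3 that were higher, where 34.1% and 37.6% of all kept genes did not overlap in these directions. When 1 of the 4 columns was dropped, whichever it was, limma called none of the 38 and none of the kept genes, while 26 to 29 of the 38 were lower at an unadjusted p below 0.05, against 18.1% to 20.1% of kept genes. None of the 38 was called either with all probes kept or by a plain equal-variance test after adjustment, and 29 and 27 of them were lower at that unadjusted p. Of all kept genes 0.137% and 0.0716% were called lower in these settings, and 20.7% and 19.5% were lower at that unadjusted p. With probes well above background on all 4 arrays 20 were called lower, where 1743 of 14535 genes were.

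In the scanner output the same 38 genes gave a median of -0.20, against 0.01 over all kept genes, again with 32 below 0 and 6 above. None was called by limma, as 0% of kept genes were in either direction, and none reached an unadjusted p below 0.05, which 0.233% of kept genes did as lower and 0.674% as higher in shGR-19. The lowest adjusted p over all kept genes was 0.959. The arrays of the lines did not overlap for 5 genes, all lower in shGR-19, namely Palb2, Rad54b, Rad50, Nbn and Exo1, where 6.62% of kept genes did not overlap in this direction and 11.9% in the other. Between the arrays labelled replicate 1 the median difference of the 38 was 0.06, with 12 lower and 26 higher in shGR-19 and values from -0.13 to 0.40. Between those labelled replicate 2 it was -0.40, with 34 lower and 4 higher and values from -1.20 to 0.30. The median gap of a gene to its difference in the value table was 0.463 for the first pair and 0.0942 for the second. The table is a processed form of the same samples, and its sign and log base were read against the second pair, so that the smaller gap of that pair is a description and no independent support for the table.

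**Figure D1:**
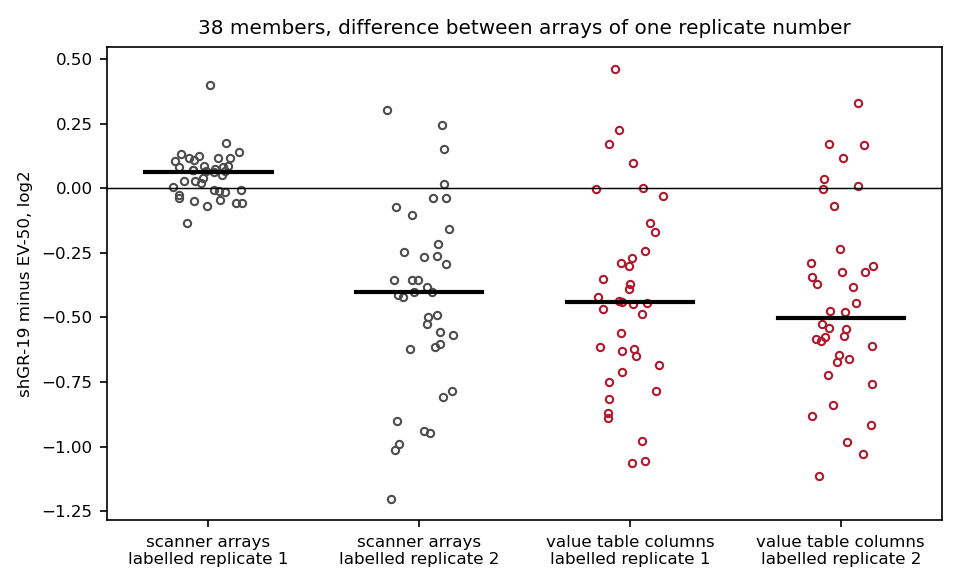
Difference between the lines (shGR-19 minus EV-50, log2) for each of the 38 genes, taken between scanner arrays or value table columns of one replicate number, with the line at the median. The scanner arrays labelled replicate 1 centre on 0.06, and those labelled replicate 2 on -0.40.

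Among the genes of the BRCA1 and BRCA2 complexes, Brca1, Brca2 and Brip1 fell, Bard1 and Palb2 had negative differences that were not called, and Brcc3 had a positive one. Their median was -0.66. Brca1, a ubiquitin ligase that directs broken ends to recombination, was read by a probe at chr11:101350409-101350468 (mm9). Its scanner signal was 1.80 and 2.76 in EV-50 and 1.89 and 2.15 in shGR-19. The EV-50 arrays enclosed both shGR-19 arrays, and the array labelled EV-50 replicate 2 was the highest. In the table Brca1 read 0.31 and 0.30 in EV-50 and -0.30 and -0.34 in shGR-19. It was 1.55-fold lower in shGR-19 (log2 difference -0.63, SE 0.047, limma adjusted p = 0.00616), and a further probe gave -0.70 with an adjusted p of 0.0405 by limma. In the scanner output the further probe had a mean difference of 0.12, against -0.27 for the brightest. With the probes of the gene averaged, Brca1 was not called in the table (-0.67, limma adjusted p = 0.0140). Its averaged scanner difference was -0.07.

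Brca2, which acts on the trimmed single strand, was read at chr5:151372225-151372284 (mm9). Its scanner signal was 1.00 and 1.33 in EV-50 and 1.12 and 0.34 in shGR-19. The array labelled shGR-19 replicate 2 was the lowest, and that labelled shGR-19 replicate 1 lay between the EV-50 arrays. The table values were 0.43 and 0.45 in EV-50 and -0.44 and -0.43 in shGR-19, which is 1.84-fold lower (log2 difference -0.88, SE 0.046, limma adjusted p = 0.00394). A further Brca2 probe gave -1.17.

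Brip1, a helicase that binds Brca1, read 0.85 and 1.26 in EV-50 and 0.92 and 0.31 in shGR-19 on the scanner arrays. In the table it was 1.80-fold lower (-0.85, SE 0.065, limma adjusted p = 0.00632), and a further probe gave -0.82. Bard1, the partner of Brca1 in its ligase, read -2.64 and -2.18 in EV-50 and -2.52 and -2.98 in shGR-19. Both genes had the same order of arrays, with the array labelled EV-50 replicate 2 highest and that labelled shGR-19 replicate 2 lowest. The table difference of Bard1 was -0.70 (SE 0.099) with a limma adjusted p of 0.0175, and that of Palb2, which joins Brca1 to Brca2, was -0.47. Brcc3, a deubiquitinase of the BRCA1-A complex, differed by 0.40 at its brightest probe and by -0.79 at a second one, so that the direction of this gene depended on the probe.

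The Fanconi core complex, the ubiquitin ligase of the pathway, had smaller differences, a contrast between roles that was not tested. Of its 8 genes none was called by limma, 4 were lower and 1 higher at an unadjusted p below 0.05 (23.0% and 25.7% of kept genes), 5 had a negative and 3 a positive sign, and their median was -0.12. Fancm, a translocase that anchors the complex on DNA, had -0.42, and its second probe was called lower at -0.66 (limma adjusted p = 0.00639). Fanca, Fancb and Fancg had -0.30, -0.25 and -0.24. Fancc and Fancl, the latter the ligase subunit, were within 0.02 of 0, and Fancf and Fance had 0.05 and 0.17. Further probes of Fancg (0.07) and Fancl (-0.09) had the opposite sign to the brightest probe.

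Of the ID complex that the core complex modifies, Fancd2 fell and Fanci had a negative difference that was not called. Fancd2 gave a scanner signal of 1.03 and 1.95 in EV-50 and of 1.16 and 0.75 in shGR-19, at chr6:113546853-113546912 (mm9). The array labelled shGR-19 replicate 2 was the lowest, but that labelled shGR-19 replicate 1 was above that labelled EV-50 replicate 1. The table values were 0.50 and 0.53 in EV-50 and -0.56 and -0.50 in shGR-19, a 2.06-fold lower level (-1.04, SE 0.052, limma adjusted p = 0.00384), and a second probe gave -0.98. Its partner Fanci had -0.45 with a limma adjusted p of 0.0113, and its second probe -1.06 with 0.0488 by limma.

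All 4 genes of the complexes that Rad51c forms, which act on the trimmed strand, had negative table differences, from -0.69 for Rad51c to -0.10 for Xrcc3, with -0.57 for Rad51l1 and -0.39 for Xrcc2. None was called by limma, and 3 were lower at an unadjusted p below 0.05, the limit that 23.0% of kept genes passed. Rad51c read -1.06 and -0.39 in EV-50 and -0.99 and -0.68 in shGR-19 on the scanner arrays, so that the EV-50 arrays enclosed the shGR-19 arrays. Its limma adjusted p in the table was 0.0129 (SE 0.083).

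The genes that assist strand exchange were at a median of -0.76 by the table, beside -0.74 for the ID complex, and of -0.32 in the scanner output, beside -0.34. Rad51ap1, which stimulates the joining of strands, read 2.39 and 2.57 in EV-50 and 2.44 and 1.63 in shGR-19 at chr6:126873437-126873473 (mm9). Again the array labelled shGR-19 replicate 2 was the lowest. The table values were 0.46 and 0.53 in EV-50 and -0.52 and -0.46 in shGR-19, which is 1.97-fold lower (-0.98, SE 0.057, limma adjusted p = 0.00456). Rad54l, a motor protein that moves along DNA during strand exchange, read 1.33 and 1.51 in EV-50 and 1.33 and 1.13 in shGR-19, and fell 1.57-fold in the table (-0.65, SE 0.060, limma adjusted p = 0.00838). Its relative Rad54b was among the 5 genes whose scanner arrays did not overlap, at 0.49 and 1.35 against 0.43 and 0.45. In the table Rad54b had -0.87 with a limma adjusted p of 0.0139 (SE 0.109), and its second probe was called at -0.91 with 0.00622 by limma. Rad52, an annealing protein, had -0.31.

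The 5 genes of end sensing and resection all had negative table differences, with a median of -0.41. Rbbp8, the CtIP protein that starts resection, fell by 0.61 (SE 0.047, limma adjusted p = 0.00636). Exo1, a nuclease that lengthens the trimmed strand, had -0.49, and Rad50, Nbn and Mre11a had -0.41, -0.38 and -0.32.

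Among the RecQ helicases, which unwind DNA at forks and joints, Recql and Recql4 fell. Recql had the largest difference of the 38 genes in the value table, though in the scanner output the mean differences of Fancd2 (-0.53) and Rad54b (-0.48) exceeded its own (-0.47). It read 1.08 and 1.48 in EV-50 and 1.16 and 0.46 in shGR-19 at chr6:142311196-142311255 (mm9), with the array labelled shGR-19 replicate 2 the lowest. The table values were 0.53 and 0.56 in EV-50 and -0.53 and -0.56 in shGR-19, a 2.13-fold lower level (-1.09, SE 0.047, limma adjusted p = 0.00331). Recql4 read 1.91 and 1.60 in EV-50 and 2.04 and 0.82 in shGR-19, and here the array labelled shGR-19 replicate 1 was the highest of the 4. Its table difference was -0.75 (SE 0.050, limma adjusted p = 0.00525). Blm, the Bloom syndrome helicase, had -0.41. Wrn, the Werner syndrome helicase, had 0.08 at its brightest probe, 0.17 at a second that shares 51 bases with it, and -0.73 at the other one, none of them called.

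The kinase Atm, which signals broken ends, read -1.12 and -0.37 in EV-50 and -1.17 and -0.90 in shGR-19 on the scanner arrays. The array labelled EV-50 replicate 2 stood above the others. Atm fell 1.57-fold in the table (-0.65, SE 0.063, limma adjusted p = 0.00888), and its second probe also gave -0.65. The kinases Chek2 and Chek1 had -0.61 and -0.57 with limma adjusted p of 0.0101 and 0.0113, just outside the call. The second probe of Chek1 was called at -0.74. Of the nuclease genes that cut joined strands, Eme1 had -0.52 and Mus81 0.17, and the 2 probes of Mus81, which share 45 bases, agreed in sign.

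**Figure D2:**
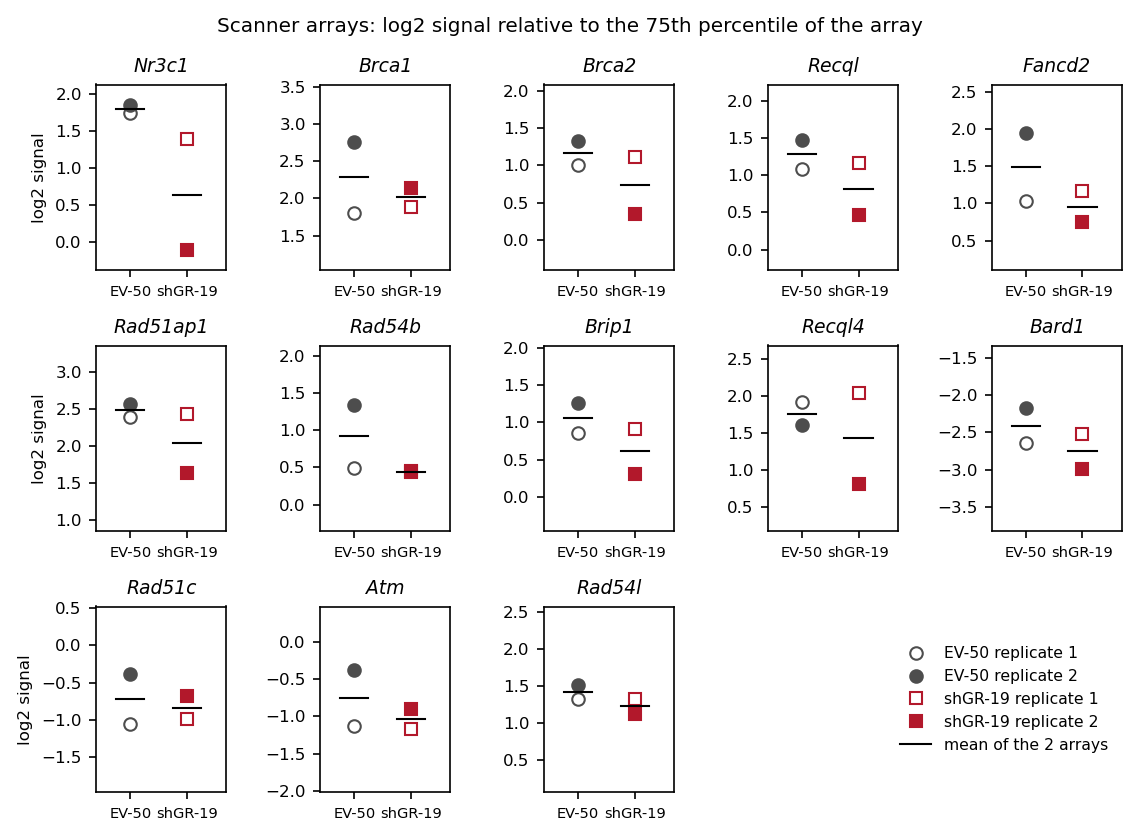
Log2 signal above the 75th percentile of all probes for Nr3c1 and 12 recombination and Fanconi genes on each scanner array, with the mean of each line as a bar; all panels span the same range of log2 units. In Brca2, Recql, Brip1 and Rad51ap1 only the array labelled shGR-19 replicate 2 stands below the EV-50 arrays, and in Brca1 both shGR-19 arrays lie between the EV-50 arrays.

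**Figure D3:**
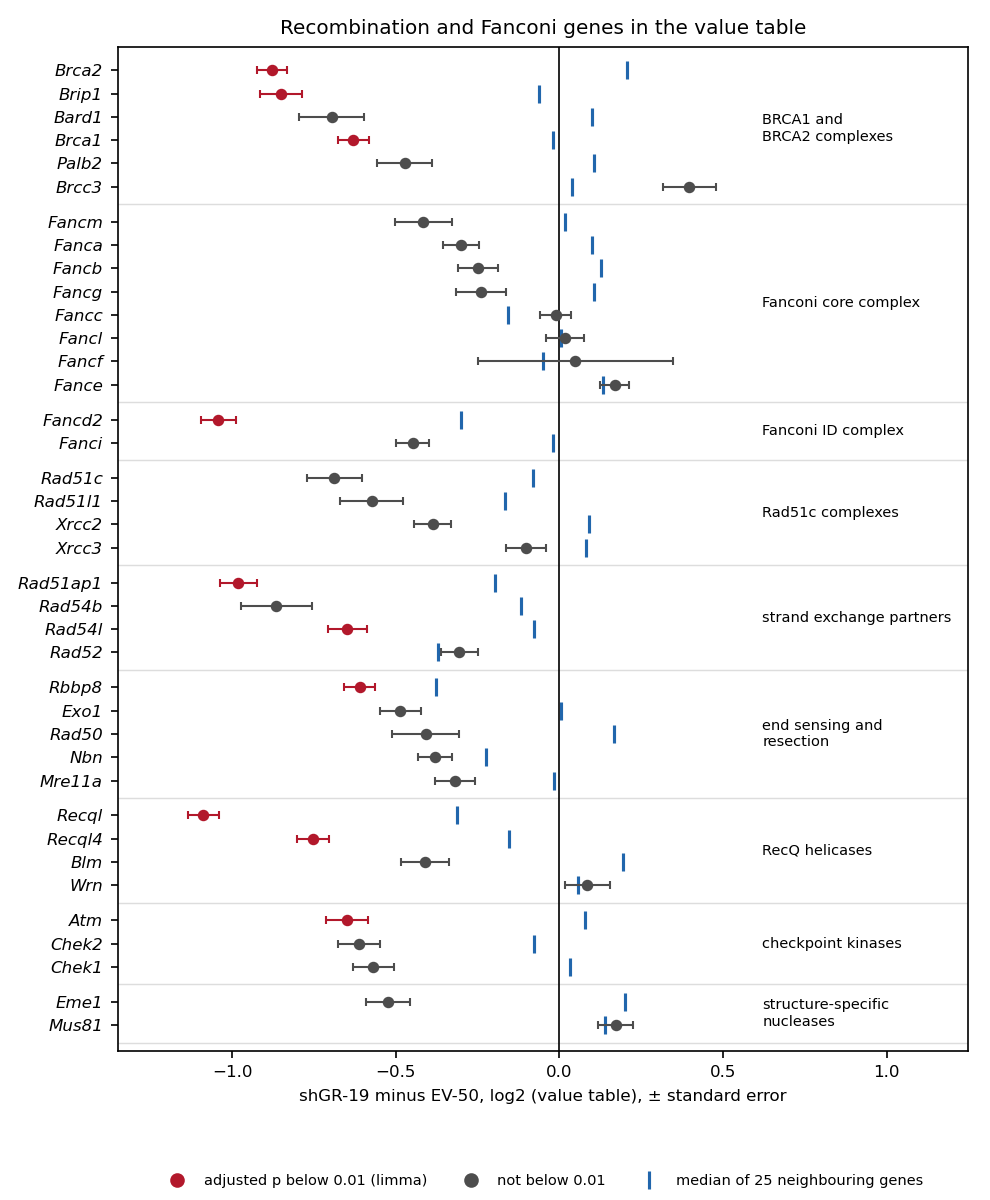
Difference in the value table (shGR-19 minus EV-50, log2) with its standard error for the 38 genes by role; red marks a limma adjusted p below 0.01 and blue bars the median of the 25 nearest kept genes on the chromosome. The Fanconi core genes lie between -0.42 and 0.17, and Recql and Fancd2 are lowest at -1.09 and -1.04.

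In the value table, further probes mostly gave the direction of the brightest one. Of the 38 genes, 20 had more than 1 kept probe, with 23 further probes in all. Of these, 19 had the sign of the brightest probe, 17 of them as lower in shGR-19, and 4 had the opposite sign, in Brcc3, Fancg, Fancl and Wrn. In the scanner output signs were not counted over all further probes. Genes whose further probe had the opposite sign to the brightest one there include Brca1, Brcc3 and Fanca. Probes of 1 gene read the same RNA on the same arrays and are not replicates.

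The 38 genes lie on 15 chromosomes, and their differences were set beside those of the 25 nearest kept genes of each. Across the genes the median of these neighbour medians was 0.01, and 30 of the 38 lay below their neighbours. The median difference of a gene from its neighbours was -0.48. Brca2 stood in a stretch whose median was 0.21, and Brca1 in one of -0.02. Around 10 of the genes the neighbour median was below -0.1. They include all 4 genes on chromosome 6, whose kept genes had a median of -0.21: Fancd2 (-0.30 for its neighbours), Recql (-0.31), Rad51ap1 (-0.20) and Rad52, at -0.37 for its neighbours against -0.31 itself. Recql4 on chromosome 15 (-0.16) and Rbbp8 on chromosome 18 (-0.38), whose kept genes had medians of -0.16 and -0.32, are others. Fancd2, Recql and Rad51ap1 lay a further 0.74 to 0.79 below their neighbours, and Rad52 lay 0.06 above its own. The first of these have the largest table differences of the 38, so that a wide gap partly follows from choosing them. The part of these stretches in the lower values was not tested.

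Other genes of recombination and crosslink repair, 34 kept of 37 listed, had a median of -0.16, with 21 lower in shGR-19. Dmc1, a recombinase of meiosis, was too dim, and Mdc1 and Mtmr15 were not matched to a name on the array. In this list 5 (14.7%) were called lower, namely Rad18, Atr, Topbp1, Atrip and Rpa2, and 1 higher, H2afx, beside 6.51% and 6.12% of all kept genes. Rad18, a ubiquitin ligase of stalled forks, fell 2.51-fold (-1.33, SE 0.073, limma adjusted p = 0.0042). Atr, the kinase that senses single-stranded DNA, and its activator Topbp1 fell by 0.87 and 0.81. H2afx, the histone variant that marks broken DNA, rose by 0.75. Clspn, which helps Atr to activate Chek1, had -0.69, and the nuclease subunit Ercc1 had 0.66, neither called. Btbd12, the older name of Slx4, had -0.57 with a limma adjusted p of 0.0218.

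End joining, which seals broken ends without a copy, had a median of -0.16 over 12 kept genes, of which 9 were lower. Of these only Xrcc6, the Ku70 subunit, was called, at -0.78, which is 8.33% of the list and near the 6.51% of all kept genes. The next in size were the nuclease gene Dclre1c at -0.66 and the polymerase gene Polm at 0.46. Proliferation genes were lower too: 26 of 30 had negative differences, their median was -0.36, and 6 (20%, beside 6.51% of all kept genes) fell, namely Mcm2, Mcm3, Mcm5, Mcm6, Cdc6 and Rrm2, with none called higher. At an unadjusted p below 0.05 by limma 19 were lower and 2 higher, against 23.0% and 25.7% of kept genes. At a limma adjusted p below 0.05, 18 (60%) were lower and 2 higher, against 17.8% and 19.4% of kept genes. The share lower at that limit was 71.1% for the recombination and Fanconi genes. Mcm2 and Mcm5, subunits of the replicative helicase, had -0.93 and -0.79, and Cdc6, which loads it, had -0.85. Between scanner arrays the median of the proliferation genes was 0.02 in the replicate 1 pair and -0.40 in the replicate 2 pair, beside 0.06 and -0.40 for the recombination and Fanconi genes. The part of the proliferation genes in the lower repair genes was not tested.

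**Figure D4:**
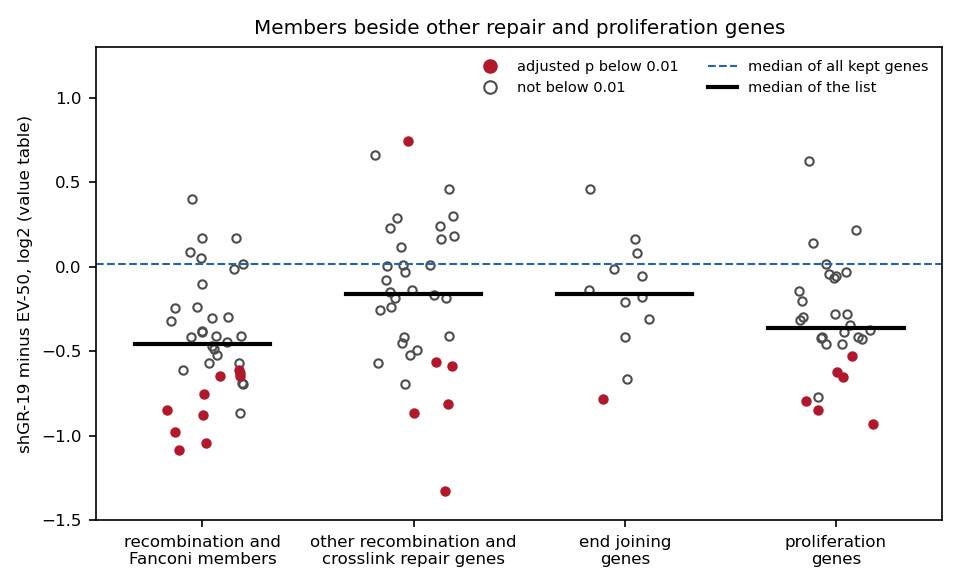
Difference in the value table (shGR-19 minus EV-50, log2) for each kept gene of 4 lists, with the list median as a black bar and the median of all kept genes (0.02) dashed; red points have a limma adjusted p below 0.01. The medians are -0.46 for the recombination and Fanconi genes, -0.16 for other repair genes, -0.16 for end joining and -0.36 for proliferation.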

How the data were processed

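RNA of 2 EPH-4 lines was read on 4 one-colour Agilent arrays (2 per line, 1 slide, 1 scan). Per the labels and methods, the authors deposited scanner output, with spot intensity after background subtraction in Agilent Feature Extraction 10.5.1.1 (default settings), and a GeneSpring table of log2 values centred on the median of each probe over the arrays. Its log2 scale and sign were set by matching column differences to those of the scanner arrays with the label replicate 2. The column medians were 0.0762, 0.0380, -0.0560 and -0.0633 (EV-50 replicates 1 and 2, then shGR-19).

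Control spots and outlier spots (74 to 139 an array) were left out and spots of a probe averaged. No spot was saturated, and 23290 to 27358 spots an array were well above background. Log2 intensity minus the 75th percentile of the array (540 to 612) was used. Of 41174 probes, 24453 were kept, those well above background on both arrays of either line, and the brightest kept probe stood for a gene. EV-50 and shGR-19 were fitted by limma 3.58.1 (lmFit, eBayes; R 4.3.3), with Benjamini-Hochberg adjustment over kept probes and a call at an adjusted p below 0.01. No exact permutation test was run, since with 2 arrays a line its smallest p is 0.333. The number of arrays limits the precision.

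Genes and lists were chosen with earlier results of these data known, and so were the rules that name genes: Brca1, Brca2 and the 12 largest differences in the table, the 6 largest of the other repair genes and the 3 largest of each further list. Steps were tested on simulated data. Alternatives were normexp (offset 50), quantile normalization, the percentile over detected probes, centred columns, other probe filters, a robust prior with an intensity trend (statmod 1.5.0), a replicate block, each array left out, other thresholds, a plain equal-variance test and the mean of a gene's probes. Probe coordinates are mm9, and promoters and current names come from RefSeq. Older array names of listed genes were matched through its synonyms. Of the wider repair genes 1 is not reported here.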

Additional observations from a re-analysis of the deposited data

How the results depend on the processing

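By the value table, 10 of the 38 genes were called lower. The count was 11 with centred columns, with quantile normalization and when the probes of a gene were averaged, and 13 with a plain equal-variance test at an unadjusted p below 0.01, which also called 1 higher. It was 20 with probes well above background on all 4 arrays, 27 (1 higher) at an adjusted p below 0.05 and 29 (2 higher) with an intensity trend and robust prior, where 1743 of 14535, 2983 of 16769 and 2783 of 16769 genes were called lower, against 1091 of 16769 as reported. It was 2 when a 2-fold difference was also required, and 0 with all probes kept, with the plain test adjusted, and with any 1 of the 4 columns left out, where the remaining array took its spread from the other line. Of kept genes 0.137% were called lower with all probes kept and 0.0716% with the plain test adjusted. With the replicate block the count was 0, and 0% of kept genes were called lower. In that fit 30 of the 38 were lower at an unadjusted p below 0.05 by limma, against 23.7% of kept genes. The replicate numbers are not stated to pair the arrays: deviations of same-numbered arrays correlated at 0.574 in the scanner output and 0.0558 in the value table. The cause of these changes was not tested. The median of the 38 genes stayed between -0.49 and -0.44 with a column left out and was -0.49 with the mean of probes, beyond the replicate SD of 0.0136.

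In the scanner output none of the 38 genes was called by limma or the plain test under any alternative run, and with the brightest probe of a gene none had an unadjusted p below 0.05. The median was -0.16 with normexp, and with an array left out it ran from -0.33 to -0.07. The array labelled EV-50 replicate 2 or shGR-19 replicate 2 decided its size: it was -0.08 without the first and -0.07 without the second. With an array left out the difference ran from -0.75 to 0.21 for Brca1, from -0.45 to 0.23 for Rad51c, from -0.66 to 0.0903 for Atm and from -0.94 to 0.28 for Recql4, so that these 4 changed direction. Across the named genes 5 values in all reversed, each in the scanner output. In the value table, alternative values of the named genes kept their direction and lost the call in 78 cases, gained the call in 10, and reversed in none. Precision is limited by 2 arrays per line. In the value table the dim probe of Fancf had an SE of 0.298, against 0.047 for the bright probe of Brca1. In the scanner output bright probes had wide errors too, with an SE of 0.393 for Brca1 and 0.294 for Fancf.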
